A study of Mus musculus with 3 samples.

Results

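The RLTR names of a mouse repeat annotation are long terminal repeats (LTRs) of rodent endogenous retroviruses, each numbered by the consensus sequence it matches. They were taken here as every listed repeat name that starts with RLTR and a digit, apart from names starting with RLTR4_ and the 2 names RLTR6_Mm and RLTR6-int. This gave 182 of 18484 listed names, in 43 groups that share the number after RLTR. Of the 182 names, 174 stand for LTRs and 8, ending in -int, for the internal part that lies between 2 LTRs. Hippocampi came from C57BL/6 mice, all 9 months old, and the RNA recovered by an antibody pull-down (RNA immunoprecipitation) was sequenced. One library came from each of 3 groups: a pull-down of ZBP1 from PS19 mice, a pull-down of ZNA from PS19 mice, and a pull-down of ZNA, which the labels do not spell out, from wild-type (WT) mice. In PS19 mice the mouse prion promoter drives mutant human tau, and tau pathology develops with age. The labels do not say whether a library pools animals. No input, no isotype control and no ZBP1 pull-down from wild type was analysed here. The tissue label could not be checked against marker genes, because the listed names are repeats.

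An endogenous retrovirus inserts as an internal coding part flanked by 2 LTRs, which hold its promoter and its polyadenylation signal. Recombination between the LTRs often removes the internal part, so that most copies in the genome are solitary LTRs, and some act as promoters or enhancers of nearby genes. Most copies are kept silent by DNA methylation and by histone methylation. ZBP1 is an innate immune sensor of Z-form RNA and DNA, and double-stranded RNA from retroviral and other repeats is regarded as one source of its ligands. A repeat name pools all copies in the genome, so no position, strand or single copy can be given for a value, and no consensus length is given, so read numbers of different names cannot be compared per length.

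The libraries held 1425383 (PS19 ZBP1), 2918985 (PS19 ZNA) and 3234786 (WT ZNA) reads on repeat names. Outside the 2 ribosomal RNA (rRNA) names lay 74474, 308613 and 145372 of these reads, or 5.22%, 10.6% and 4.49%. The PS19 ZNA library therefore stands apart by its share of reads outside rRNA. Each value is given on both scales below, as a share of the library total and of the reads outside rRNA. With 1 library per group there is no replicate error, and no difference could be tested as one of genotype or antibody. Intervals are exact 95% conditional (Clopper-Pearson) intervals of a ratio of reads or Wilson intervals of a share. They cover counting error only, and they take each read as an independent molecule, which could not be checked. One read is worth 13.4, 3.24 and 6.88 CPM (counts per 1000000 reads) outside rRNA in the 3 libraries, and a count of 0 (upper limit 3 reads) allows up to 40.3, 9.72 and 20.6.

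RLTR names held 2890 PS19 ZBP1, 14048 PS19 ZNA and 6169 WT ZNA reads. This was 0.203% (0.196 to 0.210%), 0.481% (0.473 to 0.489%) and 0.191% (0.186 to 0.196%) of the library totals. Among the reads outside rRNA, the shares lay much closer together, at 3.88% (3.74 to 4.02%), 4.55% (4.48 to 4.63%) and 4.24% (4.14 to 4.35%). Reads were found on 168, 175 and 169 of the 182 names, on 162 in all 3 libraries, and on 177 in at least 1. The reads per name were few. The medians were 9, 42.5 and 20.5 in the same order, and 1, 45 and 10 names reached 100 reads. The PS19 ZBP1 library thus limits the precision of single names most when set against PS19 ZNA, and the WT ZNA library does so in PS19 against WT ZNA.

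The reads were spread over many names, with RLTR17B_Mm, an LTR, first in each library. It had 277 reads in the PS19 ZBP1, 1107 in the PS19 ZNA and 522 in the WT ZNA library. These were 3719, 3587 and 3591 CPM outside rRNA, so that this name was level across the 3 libraries once rRNA was left out. The 12 names with the most reads took 29.3%, 32.3% and 32.9% of all RLTR reads. After RLTR17B_Mm came the LTR name RLTR11A2, with 76, 506 and 216 reads in the same order, and the internal name RLTR10-int, with 86, 422 and 212. RLTR11A had 63, 392 and 201 reads. Unlike RLTR17B_Mm, both RLTR11 names were low in the ZBP1 library per reads outside rRNA, as described below. The other 8 of the 12 had 25 to 62 reads in the PS19 ZBP1, 215 to 313 in the PS19 ZNA and 86 to 131 in the WT ZNA library, and were RLTR40, RLTR28, RLTR17, RLTR22_Mur, RLTR15, RLTR18-int, RLTR19-int and RLTR25B. By number, the groups RLTR17, RLTR13, RLTR11, RLTR20 and RLTR10, with 58 names, held 43.4%, 43.1% and 46.2% of the RLTR reads. RLTR17 alone held 13.1%, 11.6% and 12.1%, and RLTR13, the group with the most names (23), 10.3%, 9.60% and 10.4%.

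**Figure D1:**
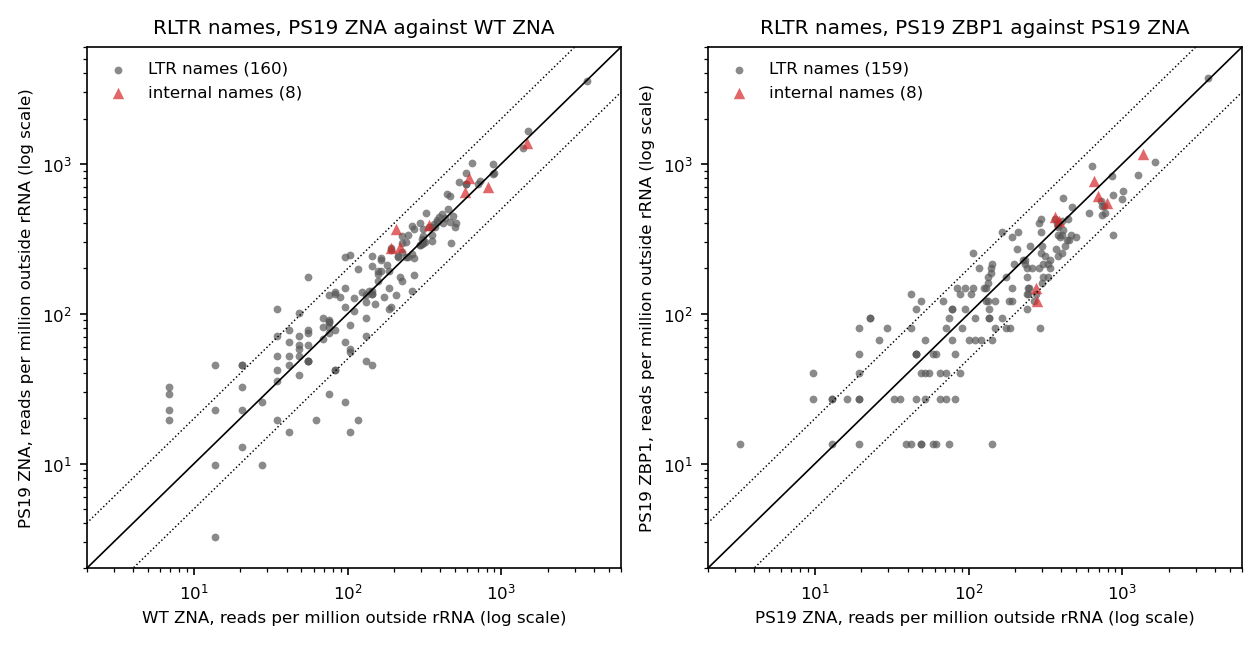
CPM outside rRNA of each RLTR name with a read in both libraries compared, on log axes, PS19 ZNA against WT ZNA (left) and PS19 ZBP1 against PS19 ZNA (right). Circles are LTR names and triangles the 8 internal names, the solid line marks equal values and the dotted lines 2-fold differences. Points lie around the line of equal values on the left and mostly below it on the right, and scatter widens at low values.

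The first comparison set the ZNA pull-down of PS19 against that of WT. Per library total, RLTR reads were 2.52-fold higher in the PS19 library (2.45 to 2.60), beside 2.35-fold (2.34 to 2.37) for all reads outside rRNA. Per reads outside rRNA, they were 1.07-fold higher (1.04 to 1.11). Of the 182 names, 147 passed a filter of a mean of at least 1 CPM of the library total and 20 summed reads, and none of these was under 1 CPM in either library. Per library total, 112 of the 147 were at least 2-fold higher in PS19, beside 74.3% of all names that passed, and 2 were at least 2-fold lower, beside 0.421%. By interval, 124 lay above no change, beside 84.3%, and 0 below it, beside 0.842%. The median log2 ratio was 1.23 over the RLTR names and 1.24 over all names outside rRNA. Per reads outside rRNA, 6 RLTR names were at least 2-fold higher, beside 4.64% of all names, and 6 were at least 2-fold lower, beside 2.95%. At 4.08% of the RLTR names, both counts were near the shares of all names. The median was then 0.12, against 0.08 over all names. Of the 147 RLTR names, 88 lay above and 59 below 0. This was near the share over all 711 names outside rRNA, with 424 above and 287 below. The ratio of RLTR reads to the reads of 390 other LTR names was 0.162 in PS19 and 0.159 in WT, a 1.02-fold difference whose interval includes no change (0.989 to 1.05). Against the ORR1 names and against the RMER, MYSERV, MurERV4 and ERVB names, 2 other sets of mouse LTR retrotransposons, the corresponding values were 0.995-fold (0.958 to 1.03) and 0.988-fold (0.95 to 1.03).

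By number, the 29 groups with at least 200 summed reads all had more reads per library total in PS19 ZNA than in WT ZNA, by 2.04-fold to 3.47-fold. With rRNA left out the ratios ran from 0.866 to 1.47, and the interval lay above no change for 6 groups and below it for 1. RLTR15, a group of 1 LTR name, had 46 reads in the PS19 ZBP1, 269 in the PS19 ZNA and 86 in the WT ZNA library. It was 1.47-fold higher in PS19 than in WT ZNA per reads outside rRNA (1.15 to 1.90) and 3.47-fold per library total (2.71 to 4.47). RLTR21, also 1 name, had 39, 234 and 77 reads and was 1.43-fold higher (1.10 to 1.88). RLTR28 had 54, 350 and 113 reads and was 1.46-fold higher (1.18 to 1.82), but this came from the name RLTR28 itself (49, 313 and 94 reads, 1.57-fold, 1.24 to 2.0). Without it, the other name of that group was 0.917-fold (0.514 to 1.69). The RLTR1, RLTR19 and RLTR34 groups were 1.30-fold (1.07 to 1.58), 1.33-fold (1.09 to 1.63) and 1.39-fold (1.07 to 1.83) higher. Each of these 3 kept an interval above no change without its leading name, at 1.46-fold, 1.41-fold and 1.53-fold. All names of theirs that passed the filter (6 of 9, 4 of 7 and 3 of 3) lay above 0, beside 424 of 711 over all names. Among those that did not pass, the name RLTR1 had 0 reads in PS19 ZNA and 7 in WT ZNA, and RLTR19A2 had 8 and 0.

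The RLTR10 group was the one with an interval below no change. It had 182 reads in the PS19 ZBP1, 787 in the PS19 ZNA and 424 in the WT ZNA library. It was 1.14-fold lower in PS19 than in WT ZNA on that scale (1.01 to 1.29), and 2 of its 9 names that passed lay above 0. Its internal name RLTR10-int was 1.07-fold lower (0.900 to 1.26), and its other names together 1.23-fold lower (1.04 to 1.46). Groups with more reads than most others, RLTR17, RLTR13 and RLTR11, had ratios of 1.03 (0.940 to 1.12), 0.988 (0.898 to 1.09) and 1.0 (0.904 to 1.11).

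**Figure D2:**
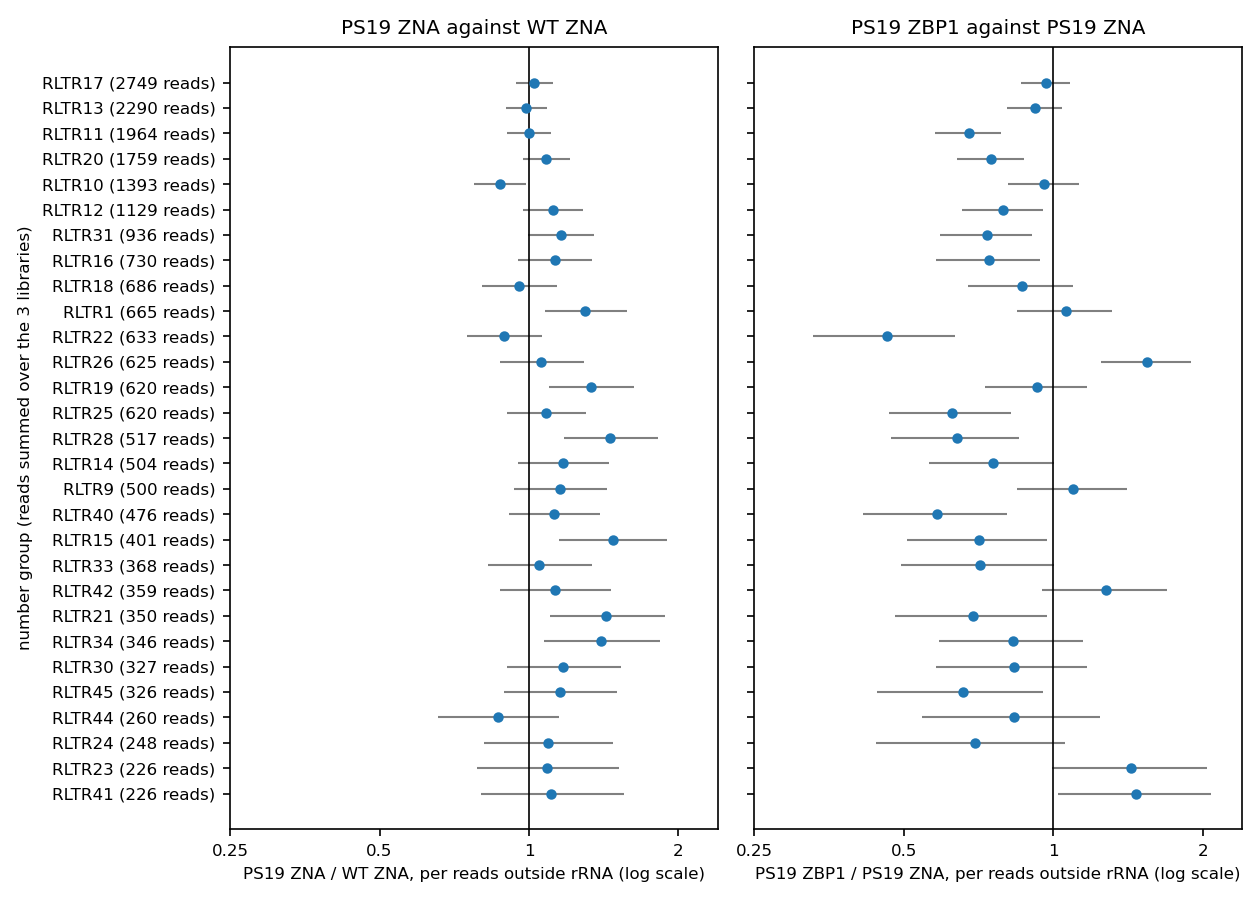
Ratio of reads per reads outside rRNA for the 29 RLTR number groups with at least 200 summed reads, PS19 ZNA over WT ZNA (left) and PS19 ZBP1 over PS19 ZNA (right), on log axes. Points are ratios of pooled reads, bars exact 95% intervals from counting error, and the vertical line marks no difference. On the left the ratios lie between 0.866 and 1.47. On the right 12 groups have intervals below 1, RLTR22 lowest at 0.462, and 2, RLTR26 and RLTR41, have intervals above 1, that of RLTR41 not under TMM or DESeq2 scaling.

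Single names spread little beyond counting error in this comparison. The log2 ratios of the 67 RLTR names with at least 100 reads had a standard deviation of 0.28, where counting error gives 0.24. Of the 147 names, 13 had an unadjusted 95% interval above no change per reads outside rRNA, beside 14.6% of all names, and 9 had one below it, beside 6.47%. Among names with at least 50 reads, RLTR9D had the highest ratio, on 54 reads in the PS19 ZNA and 8 in the WT ZNA library. It was 7.48-fold higher per library total (3.54 to 18.2) and 3.18-fold per reads outside rRNA (1.5 to 7.74). LTRs of the RLTR9 group are known as enhancers bound by pluripotency factors in mouse embryonic stem cells. The PS19 ZBP1 library had 13 RLTR9D reads, or 175 CPM outside rRNA, equal to the 175 of the PS19 ZNA library and above the 55.0 of WT. RLTR9D2, a related name with few reads, went the other way, with 5, 8 and 14 reads and a 3.72-fold lower value in PS19 than in WT ZNA (1.45 to 10.2).

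Next highest were RLTR53_Mm and RLTR31M. RLTR53_Mm had 10 reads in the PS19 ZBP1, 74 in the PS19 ZNA and 14 in the WT ZNA library, a 2.49-fold higher value in PS19 than in WT ZNA (1.39 to 4.77). RLTR31M had 11, 76 and 15 reads and was 2.39-fold higher (1.36 to 4.47). Both were highest in the PS19 ZNA library, with 134 and 148 CPM outside rRNA in the ZBP1 library, 240 and 246 in the PS19 ZNA library, and 96.3 and 103 in WT. RLTR1B-int, an internal name, had 33, 113 and 30 reads and was 1.77-fold higher in PS19 than in WT ZNA (1.18 to 2.75). Its level in the ZBP1 library, 443 CPM outside rRNA, was also above the 206 of WT. The remaining 4 of the 8 highest, RLTR1D, RLTR34D_MM, RLTR20B4_MM and RLTR20D, were 1.68-fold to 1.76-fold higher, and of these only RLTR20D had an interval above no change (1.03 to 2.87).

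At the low end, none of the 8 names with at least 50 reads was below WT per library total; they were 1.28-fold to 1.77-fold higher, less than the 2.35-fold of all reads outside rRNA. RLTR13D5, an LTR known as an enhancer in mouse trophoblast stem cells, had 26 reads in the PS19 ZBP1, 91 in the PS19 ZNA and 68 in the WT ZNA library. With rRNA left out it was 1.59-fold lower in PS19 than in WT ZNA (1.14 to 2.20). RLTR16C_MM had 5, 44 and 38 reads and was 1.83-fold lower (1.16 to 2.90), and RLTR31A_Mm, on 7, 34 and 28 reads, was 1.75-fold lower (1.02 to 2.97). RLTR27, with 19, 33 and 27 reads, had 255, 107 and 186 CPM outside rRNA and was thus lowest in the PS19 ZNA library. The intervals of RLTR10B2, RLTR13B3, RLTR26B_MM and RLTR26 included no change. The 2 names at least 2-fold lower per library total, RLTR10F (6 and 17 reads) and RLTR44B (5 and 15 reads), have few reads. They lie outside the naming rule and were chosen once their values were known. Their intervals per library total include no change (0.126 to 1.04 and 0.105 to 1.07), while per reads outside rRNA they were 6.01-fold (2.26 to 18.6) and 6.37-fold (2.20 to 22.4) lower. The other 4 names past 2-fold lower on that scale (RLTR10D, RLTR44E, RLTR8 and RLTR9D2) also had at most 35 reads in the 2 libraries.

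**Figure D3:**
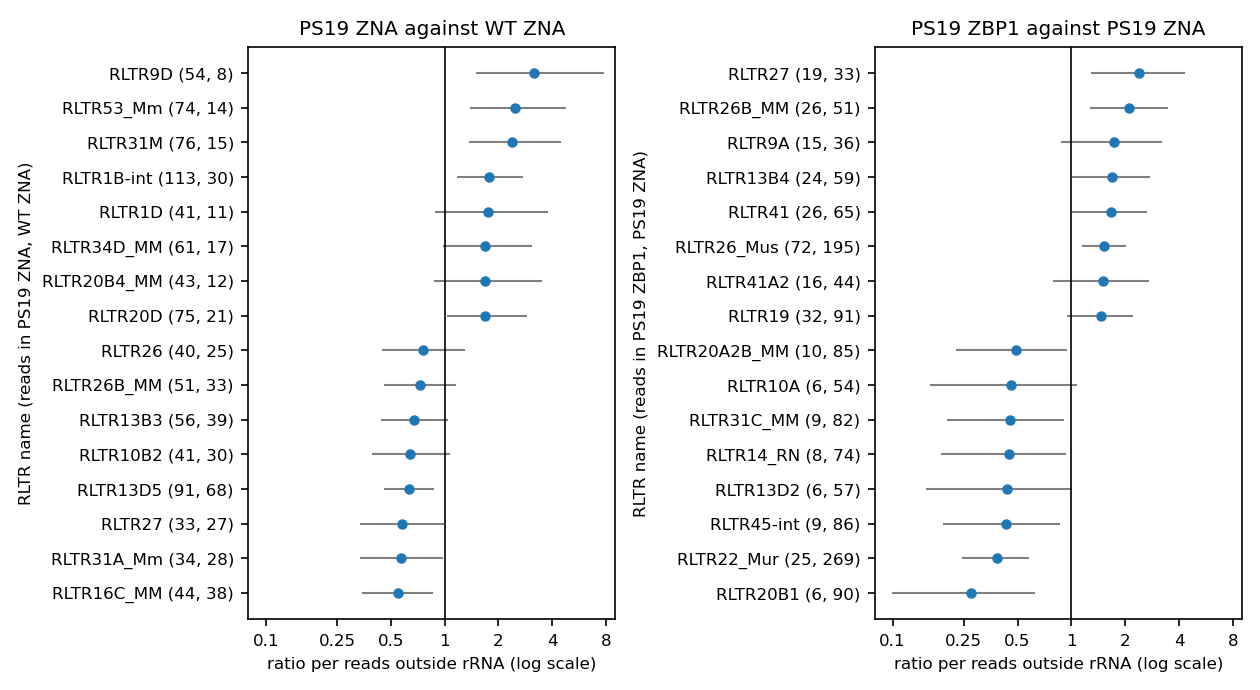
RLTR names with the 8 highest and 8 lowest ratios among those with at least 50 reads in the 2 libraries, PS19 ZNA over WT ZNA (left) and PS19 ZBP1 over PS19 ZNA (right), per reads outside rRNA on log axes. Points are ratios, bars exact 95% intervals from counting error, and the numbers in brackets are reads in the 2 libraries. RLTR9D is highest on the left at 3.18, and RLTR20B1 lowest on the right at 0.276.

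The ZBP1 and ZNA pull-downs of PS19 mice were compared next. RLTR reads were fewer in the ZBP1 library on both scales: 2.37-fold lower per library total (2.28 to 2.47) and 1.17-fold lower per reads outside rRNA (1.13 to 1.22). The other LTR names, summed, were 1.21-fold higher per reads outside rRNA (1.19 to 1.23) and 1.67-fold lower per library total (1.65 to 1.70). They were not alike: outside rRNA the ORR1 and MT names, which are LTR elements of the MaLR type, were 1.27-fold (1.24 to 1.31) and 1.28-fold (1.25 to 1.32) higher. The MLT, MST and THE1 names were 1.32-fold higher (1.26 to 1.38). By its name pattern this set also takes in MLT2 and MLTR names, so it is not purely of the MaLR type. The RMER, MYSERV, MurERV4 and ERVB names were at 1.04-fold (1.01 to 1.07), with 34 names above and 31 below 0. Within this set the MYSERV and MurERV4 names that passed, picked after their values were seen, all lay below 0. Their log2 ratios ran from -0.58 (MYSERV6-int) to -2.25 (MurERV4_19-int). The ETn and MusD names were 1.35-fold lower (1.12 to 1.65) and the VL30, MuLV and MuRRS names 1.26-fold lower (1.13 to 1.40). Most reads of the latter set lay on RLTR4_MM-int, a name that the rule leaves out. It had 302 of the 428 reads in the ZBP1 and 1744 of the 2233 in the PS19 ZNA library. Of the 6 names of that set that passed the filter, 2 lay above and 4 below 0. Other retroviral sets were higher: IAP names 1.31-fold (1.20 to 1.43) and MERVL and MT2 names 1.20-fold (1.12 to 1.28). So were the LTR-numbered names, at 1.47-fold (1.30 to 1.65), and the MER LTR names, at 1.27-fold (1.14 to 1.41). Lower RLTR values were thus shared with some other retroviral names, but not with the summed IAP or the summed MERVL and MT2 reads. By name these 2 sets were mixed. Of the IAP names that passed, 8 lay above and 8 below 0, and of the MERVL and MT2 names 5 and 3. The ratio of RLTR reads to other LTR reads does not depend on how the libraries are scaled. There were 0.114 RLTR reads per read of other LTR names in the ZBP1 library against 0.162 in the ZNA library of PS19 and 0.159 in that of WT. From PS19 ZNA to ZBP1 this is a 1.42-fold lower value (1.36 to 1.48). Against ORR1 names it was 1.49-fold lower (1.42 to 1.57), and against RMER, MYSERV, MurERV4 and ERVB names 1.22-fold lower (1.16 to 1.28). RLTR reads made up 10.2% of all these LTR reads in the ZBP1 library, 13.9% in the PS19 ZNA and 13.7% in the WT ZNA library.

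Of the 182 names, 135 passed the filter, 3 of them with under 1 CPM in the ZBP1 library, so that these could only come out lower. On library totals, 85 of the 135 had at least 2-fold less in ZBP1, beside 50.1% of all names that passed, and 0 had at least 2-fold more, beside 0.293%. By interval, 98 lay below no change, beside 67.3%, and 0 above it, beside 2.35%. The RLTR share at least 2-fold lower was 63.0%, above that of all names, and 81 of 235 other LTR names were as low. With rRNA left out, 16 RLTR names were at least 2-fold lower, beside 9.41% of all names, and 5 were at least 2-fold higher, beside 9.12%. These are 11.9% and 3.70% of the RLTR names, the first near the share of all names and the second under it. In the other LTR names these numbers were 11 and 11 of 235. The median log2 ratio per reads outside rRNA was -0.30 for RLTR, 0.19 for the other LTR names and -0.05 for all names. Of the RLTR names, 90 lay below and 45 above 0. Among the 235 other LTR names 87 lay below and 148 above, and among all 680 names 359 and 321. By interval, 19 RLTR names lay below no change, beside 18.7% of all names, and 6 above it, beside 18.8%. At 14.1% and 4.44% of the RLTR names, both shares were under those of all names, at few reads per name. The log2 ratios of the 55 RLTR names with at least 100 reads had a standard deviation of 0.42, where counting error gives 0.31. Those of the 122 other LTR names had 0.50, where counting error gives 0.21.

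**Figure D4:**
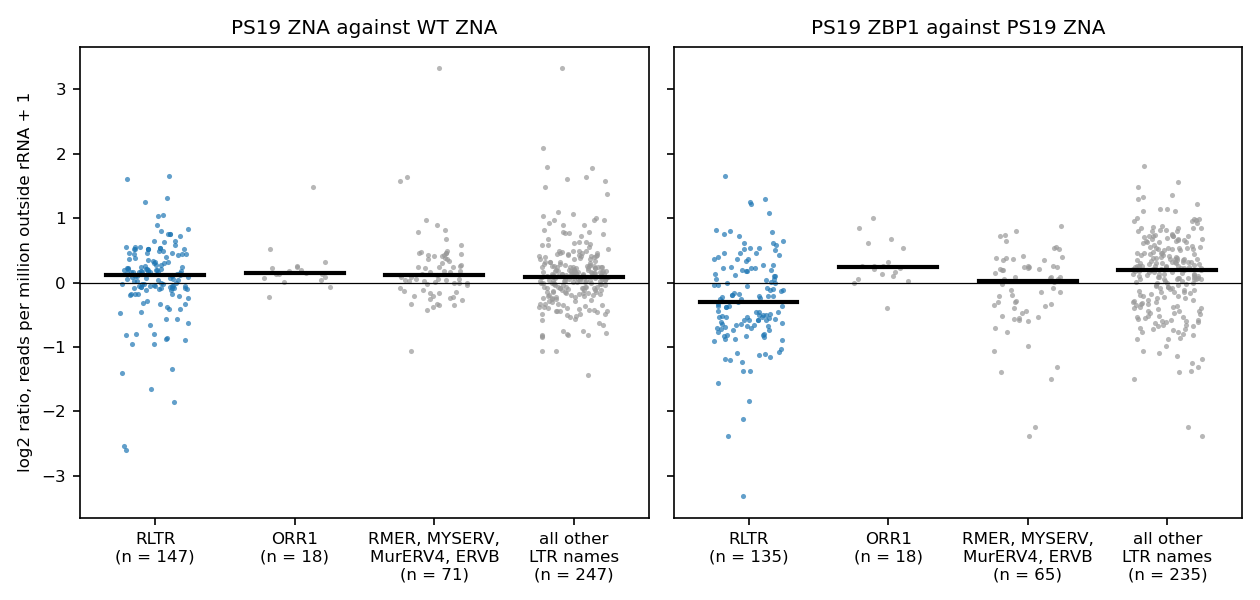
Log2 ratio of CPM outside rRNA, with 1 added, for each name that passed the filter, PS19 ZNA against WT ZNA (left) and PS19 ZBP1 against PS19 ZNA (right). Points are names, placed with random sideways spread, thick bars medians, and the last column includes the ORR1 and RMER columns. The RLTR median is 0.12 on the left, near those of the other sets, and -0.30 on the right, where the other LTR names have 0.19.

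The ratios of the number groups ran from 0.462 to 1.54 here, with rRNA left out. Per library total all 29 groups were lower in the ZBP1 library, 27 with an interval below no change. On the scale without rRNA, the intervals of 12 groups lay below no change and those of 2 above it. RLTR22 was lowest, with 43 reads in the PS19 ZBP1, 386 in the PS19 ZNA and 204 in the WT ZNA library. It was 2.17-fold lower in ZBP1 than in PS19 ZNA per reads outside rRNA (1.58 to 3.04). The low value lay mainly in RLTR22_Mur (25, 269 and 131 reads), which was 2.60-fold lower (1.72 to 4.08), while its other name was 1.57-fold lower with an interval that includes no change (0.95 to 2.74). RLTR11, with 196, 1202 and 566 reads, was 1.48-fold lower (1.27 to 1.73). All 5 RLTR11 names lay below 0, and without RLTR11A2 the group was still 1.40-fold lower (1.15 to 1.71). RLTR20, with 16 names and 197, 1089 and 473 reads, was 1.33-fold lower (1.15 to 1.56), and 11 of its 14 names that passed lay below 0.

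RLTR40, a single LTR name, had 43 reads in the PS19 ZBP1, 305 in the PS19 ZNA and 128 in the WT ZNA library and was 1.71-fold lower in ZBP1 than in PS19 ZNA (1.24 to 2.41). Of similar size were RLTR25 (59, 391 and 170 reads, 1.60-fold lower, 1.21 to 2.14), RLTR28 (1.56-fold, 1.17 to 2.12) and RLTR45 (1.52-fold, 1.05 to 2.27). The remaining 5 groups, RLTR12, RLTR31, RLTR16, RLTR15 and RLTR21, were 1.26-fold to 1.45-fold lower. RLTR15, RLTR21 and RLTR28 were also higher in PS19 than in WT ZNA, and the 2 comparisons share the PS19 ZNA library. In the order ZBP1, PS19 ZNA and WT ZNA, RLTR15 had 618, 872 and 592 CPM outside rRNA. RLTR21 had 524, 758 and 530, and RLTR28 had 725, 1134 and 777, so that their ZBP1 levels were near those of WT. Without their leading names, the intervals of RLTR28 (1.79-fold lower, 0.700 to 5.82) and RLTR16 (1.40-fold lower, 0.997 to 2.01) included no change. RLTR45 without its LTR name, which leaves RLTR45-int, was 2.31-fold lower (1.16 to 5.21). RLTR14 had an interval that just included no change (1.32-fold lower, 0.997 to 1.78) and was 1.77-fold lower without RLTR14-int (1.18 to 2.75). In PS19 against WT ZNA, the intervals of RLTR11, RLTR12, RLTR16, RLTR20, RLTR22, RLTR25, RLTR31, RLTR40 and RLTR45 included no change. Their ratios ran from 0.891 (RLTR22) to 1.16 (RLTR31, 0.997 to 1.35). In these groups the ZBP1 library was the lowest of the 3 per reads outside rRNA.

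The RLTR26 group was high in the ZBP1 library. It had 128 reads there, 344 in the PS19 ZNA and 153 in the WT ZNA library, or 1719, 1115 and 1052 CPM outside rRNA. It was 1.54-fold higher in ZBP1 than in PS19 ZNA (1.25 to 1.89), 4 of its 5 names lay above 0, and without RLTR26_Mus the other 4 names were 1.56-fold higher (1.12 to 2.13). Per library total it was still 1.31-fold lower (1.07 to 1.62). RLTR41, with 45, 127 and 54 reads, was 1.47-fold higher per reads outside rRNA (1.02 to 2.08), but its interval included no change without the name RLTR41 (0.717 to 2.15). Under TMM and DESeq2 scaling, tried after seeing the data, RLTR26 kept an interval above no change (1.12 to 1.70 and 1.20 to 1.82), while that of RLTR41 included no change (0.916 to 1.86 and 0.980 to 2.0). The groups with intervals below no change then numbered 18 and 14 instead of 12. RLTR17, the group with the most reads, was at 0.967-fold (0.862 to 1.08), and at 0.818-fold (0.655 to 1.01) without RLTR17B_Mm. RLTR10 (0.958, 0.811 to 1.13), RLTR1 (1.06, 0.846 to 1.31) and RLTR9 (1.09, 0.843 to 1.41) had intervals that include both no change and the 0.852 of all RLTR names. In RLTR9, 6 of 7 names that passed lay below 0 although the pooled ratio was above 1. RLTR9D was level, at a log2 ratio of -0.003, and none of the RLTR9 names had an interval below no change.

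Among names with at least 50 reads, RLTR20B1 had the lowest ratio. It had 6 reads in the PS19 ZBP1, 90 in the PS19 ZNA and 44 in the WT ZNA library, or 80.6, 292 and 303 CPM outside rRNA. This was a 3.62-fold lower value in ZBP1 than in PS19 ZNA (1.60 to 10.1). RLTR22_Mur, described above, came next, and then RLTR45-int, an internal name with 9, 86 and 32 reads that was 2.31-fold lower (1.16 to 5.21). RLTR14_RN, a name of a rat consensus, had 8, 74 and 36 reads and was 2.23-fold lower (1.08 to 5.36). RLTR31C_MM (9, 82 and 28 reads) and RLTR20A2B_MM (10, 85 and 28 reads) were 2.20-fold (1.10 to 4.98) and 2.05-fold lower (1.06 to 4.43). RLTR13D2 and RLTR10A, with 6 ZBP1 reads each, had intervals that included no change. RLTR20A, chosen with its values known, had 1, 44 and 21 reads, a 10.6-fold lower value with a counting interval from 1.81 to 429.

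At the high end stood RLTR27, with 19 reads in the PS19 ZBP1, 33 in the PS19 ZNA and 27 in the WT ZNA library. It was 2.39-fold higher in ZBP1 than in PS19 ZNA per reads outside rRNA (1.28 to 4.32). Per library total it was 1.18-fold higher, with an interval that includes no change (0.633 to 2.14). RLTR26B_MM had 26, 51 and 33 reads and was 2.11-fold higher (1.26 to 3.45). Both were also among the 8 lowest in PS19 against WT ZNA. The 2 comparisons share the PS19 ZNA library, where both names were lowest per reads outside rRNA. Per library total both were lowest in the WT ZNA library. RLTR26_Mus, with 72, 195 and 64 reads, was 1.53-fold higher (1.15 to 2.01), and had 967, 632 and 440 CPM outside rRNA. RLTR41 was 1.66-fold higher (1.01 to 2.65) on 26 and 65 reads. The intervals of RLTR9A, RLTR41A2 and RLTR19 included no change. RLTR13B4 (24 and 59 reads) was 1.69-fold higher with an interval barely above no change (ZNA over ZBP1 0.363 to 0.997). The intervals of RLTR41 and RLTR13B4 included no change under TMM and DESeq2 scaling. The 3 further names at least 2-fold higher, RLTR10D, RLTR10E and RLTR19B, had 8 to 10 ZBP1 reads and were chosen with their values known.

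The 8 internal names were compared with the LTR names as a ratio within each library, which the scaling cannot move. Together they held 313 reads in the PS19 ZBP1, 1488 in the PS19 ZNA and 644 in the WT ZNA library, or 10.8%, 10.6% and 10.4% of RLTR reads. Internal reads per LTR read were 0.121, 0.118 and 0.117. The PS19 ZNA over WT ZNA quotient of this ratio was 1.02 (0.921 to 1.12), and that of ZBP1 over PS19 ZNA was 1.03 (0.898 to 1.17). Both intervals include no change. Within number groups the picture was less even. In RLTR44, the internal name had 11, 85 and 28 reads and its 5 LTR names 19, 64 and 53. The internal-to-LTR ratio was 0.579 (0.249 to 1.28), 1.33 (0.949 to 1.87) and 0.528 (0.322 to 0.850), and was 2.51-fold higher in PS19 than in WT ZNA (1.38 to 4.6). The internal name was the part with more reads in the PS19 ZNA library, and the LTR names together were 1.76-fold lower there than in WT per reads outside rRNA (1.20 to 2.57).

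In RLTR19 the internal name had 41, 246 and 90 reads and its 6 LTR names 47, 147 and 49. Its ratio of 0.872 in the ZBP1 library was 1.92-fold lower than the 1.67 of the PS19 ZNA library (1.17 to 3.14), with 1.84 in WT. Against the LTR name RLTR19 alone it was 2.11-fold lower (1.21 to 3.66). RLTR14 ran the other way: its ratio of 1.15 in the ZBP1 library was 1.89-fold higher than the 0.606 of the PS19 ZNA library (1.04 to 3.47), with 0.620 in WT. Against the LTR name RLTR14 alone it was 1.69-fold higher, with an interval that includes no change (0.867 to 3.34). For RLTR1B, whose internal and LTR names share a stem, the ratio was 1.18 in the ZBP1, 0.966 in the PS19 ZNA and 0.556 in the WT ZNA library, 1.74-fold higher in PS19 than in WT ZNA (1.01 to 3.03). Against all 8 LTR names of number 1 it was 1.5-fold higher, with an interval that includes no change (0.938 to 2.46). In RLTR10, RLTR18 and RLTR45 the intervals of both quotients included no change. In RLTR42 nearly all reads were internal, with 57, 201 and 84 internal reads against 7, 7 and 3 on its LTR name.

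**Figure D5:**
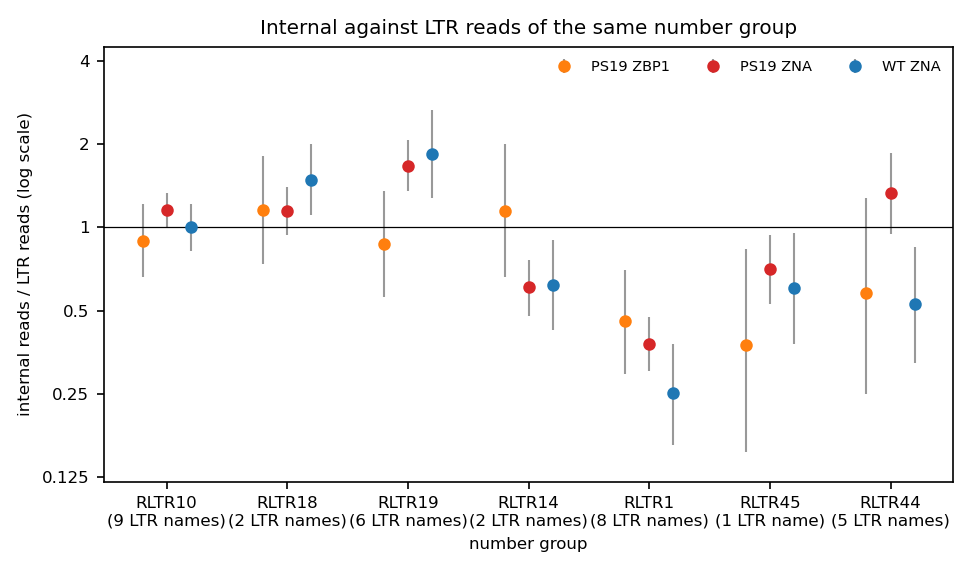
Reads of the internal name divided by reads of all LTR names of the same number, for the 7 number groups in which both have at least 50 reads over the 3 libraries, on a log axis. Points are the 3 libraries and bars exact 95% intervals from counting error; levels of different groups are not comparable, as lengths are unknown. RLTR44 is highest in PS19 ZNA (1.33), RLTR19 lowest and RLTR14 highest in the ZBP1 library (0.872 and 1.15).

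The remaining names had few reads. No reads at all were found for 5 names, and 26 more had under 20 reads summed over the 3. The 14 number groups with under 200 reads held 874 reads together. Reads in 1 library only were seen for 4 names: RLTR1 with 7 reads in WT ZNA, RLTR19A2 with 8 and RLTR46A2 with 3 in PS19 ZNA, and RLTR46 with 1 in PS19 ZBP1. None of them reached 10 reads. Of the 35 names that did not pass the filter in PS19 against WT ZNA, 24 had more reads in the PS19 library, and none had more than 19 reads in the 2 libraries.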

How the data were processed

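The authors deposited, for each library, a whole-number read count for every repeat name, not normalized, as the values show. Trim Galore 0.6.5, STAR 2.5.3a, featureCounts 2.0.4 and the build mm39 are listed in the submitters' processing notes. The repeat annotation, the strand setting and how multi-mapping reads were counted are not given in the sources used here. Those choices can move reads between related RLTR names, so single names are less certain than groups.

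CPM (counts per 1000000) was computed per library total and per reads outside LSU-rRNA_Hsa and SSU-rRNA_Hsa, and log2 ratios with a pseudocount of 1, over all names. Names entered with a mean of at least 1 CPM per library total and 20 summed reads over the 2 libraries. A count test such as edgeR's needs replicates; with 1 library per group none was run, and p-values are not given. Intervals of ratios are 95% exact conditional intervals, unadjusted for the number of names. A percent beside a member count is the share of all names passing the filter and called by that rule. Other LTR names were assigned by patterns in the names; the files list names and counts only, and a retroviral name that matched no pattern is not among them.

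Names in the text are the 12 with the most reads, the 8 highest and 8 lowest per comparison among names with at least 50 reads, internal and LTR names with at least 50 reads each, and names read in 1 library only, where a minimum of 10 reads had been set. Others were picked after their values were seen. The members and lists were chosen with earlier results of these data known. The calculations were tested on simulated data. Alternatives (other scaling, pseudocounts, filters, fold limits and left-out names) are in the closing section. TMM factors came from edgeR 4.0.16 and size factors from DESeq2 1.42.0 in R 4.3.3. All else used Python 3.11.15 with scipy 1.17.1, pandas 2.3.3, numpy 2.4.6, statsmodels 0.14.6 and matplotlib 3.10.9.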

Additional observations from a re-analysis of the deposited data

How the results depend on the processing

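The largest dependence, that on rRNA in the library total, is given with each result. Against reads outside rRNA, TMM scaling shifted all log2 ratios of ZBP1 against PS19 ZNA by -0.16 and DESeq2 size factors by -0.06 (PS19 against WT ZNA: 0.01 and -0.04), giving RLTR medians of -0.46 and -0.36 and pooled ratios of 0.765 and 0.819 in the former. A pseudocount of 0.1 gave medians per library total of 1.35 and -1.31, and one of 5 gave 0.95 and -0.97, with 67 names 2-fold up and 0 down from WT to PS19. No filter gave a median of -1.14 for ZBP1 over library totals; per reads outside rRNA it gave 20 higher and 11 lower names in PS19 against WT and 16 higher and 29 lower in ZBP1 against ZNA. A mean of at least 10 CPM gave a PS19 against WT median of 1.31 and 0 lower names over library totals, and with rRNA left out 3 higher and 0 lower, and 2 higher and 8 lower. At 1.5-fold, the counts per reads outside rRNA were 16 and 16, and 14 and 42; at 4-fold they were 0 and 2, and 0 and 3, with 4 higher and 0 lower in PS19 and 6 lower in ZBP1 per library total. Adding the RLTR4_ and RLTR6 names moved the internal-to-LTR quotient of PS19 over WT to 1.14. Fewer names tested or a higher limit account for the counts by construction; the cause of other moves was not tested. In ZBP1 against PS19 ZNA, TMM scaling left 1 number group above and 18 below no change and DESeq2 size factors 1 and 14, and in PS19 against WT ZNA 7 and 1, and 6 and 1. The PS19 over WT ratio of the RLTR28 group turned to 0.917 without its leading name. The quotient of RLTR to other LTR reads in ZBP1 over ZNA stayed between 0.687 and 0.710 under its 4 alternatives, 2 of them (without the other LTR name with the most reads, MTD, and from medians of names) chosen after seeing the data. No paired analysis was possible because each group has 1 library, and leaving out a library was not possible. Depth limits the ZBP1 library most, where 78 RLTR names had 1 to 9 reads.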

Other observations

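Names that start with RLTR but fall outside the rule were read as well. RLTR4_MM-int, the internal part of a murine leukemia virus type element, had 302 reads in the PS19 ZBP1, 1744 in the PS19 ZNA and 608 in the WT ZNA library. Per reads outside rRNA it was 1.35-fold higher in PS19 than in WT ZNA (95% exact interval 1.23 to 1.48) and 1.39-fold lower in ZBP1 than in PS19 ZNA (1.23 to 1.58). It had more reads than RLTR17B_Mm in each library. RLTRETN_Mm, the LTR of an early transposon, had 27, 106 and 40 reads, and the intervals of both ratios per reads outside rRNA included no change (0.860 to 1.84 and 0.665 to 1.62). RLTR4_Mm (2, 7 and 1 reads), RLTR6_Mm (3, 6 and 1) and RLTR6-int (2, 9 and 0) had too few reads for a ratio.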
